A study of Homo sapiens with 2 samples.

Results

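The metallothioneins, the zinc transporters SLC30A1 and SLC39A10 and the zinc sensor MTF1 were examined in glioma spheres. The genes were chosen by name: every gene of the deposited expression table whose symbol was MT1E, MT1F, MT1G, MT1H, MT1M, MT1X, MT2A, SLC30A1, SLC39A10 or MTF1, which gave 10 of 58735 genes. The cells were U87MG, an established human glioblastoma line, kept for a week in medium for stem cells so that they grew as spheres. They carried either the lentiviral control vector pGIPZ-CTRL or an shRNA lentivirus against TRIP13, an ATPase of the spindle checkpoint, and both cultures were selected with puromycin. Each group held 1 library of total RNA, so nothing below was tested or has a replicate check, and differences are between these libraries and not between the conditions. How many clones went into either culture is not given in the sources used here.

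Metallothioneins are very small proteins rich in cysteine that hold zinc and copper ions and buffer their free concentration. When free zinc rises, MTF1, a zinc finger transcription factor, binds short metal response elements in the promoters of metallothionein genes and of SLC30A1 and raises their transcription. SLC30A1 carries zinc out of the cell, and SLC39A10 carries it in and is known to be held down by MTF1. In brain, MT1 and MT2 genes are mainly known from astrocytes, and MT3 is the form named for nervous tissue.

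Library depth was similar, with 18871063 reads in the control library and 19903836 in the library labelled TRIP13 shRNA, a ratio of 1.05. TRIP13 (ENSG00000071539) went against the label, with 11.9 FPKM in the control library and 23.1 in the library labelled with its shRNA, so directions are given between libraries as labelled. Whether the labels were exchanged cannot be told from these values, and an exchange would turn every direction given here. FPKM, the deposited unit, relates the reads of a gene to its exon length and here to 1 common total for both libraries, so a ratio of FPKM carries the difference in depth. Of 9 markers of glioma and neural stem cells, VIM (427 against 442 FPKM, the control library second here and below) and CD44 (112 against 115) were abundant. NES had 2.21 against 5.23 FPKM, OLIG2 0.339 against 2.72 and GFAP 0.119 against 0.392, whereas SOX2 had 1 and 2 reads, PROM1 1 and 5, S100B 4 and 0 and AQP4 0 in both. All 4 of these markers that averaged at least 1 FPKM (VIM, CD44, NES and OLIG2) were higher in the control library, with FPKM ratios of 0.423 for NES and 0.124 for OLIG2. The stem cell transcripts SOX2 and PROM1 were thus nearly absent, while NES and OLIG2 were detected. Markers of other cell types had a summed level of 0.147 against 0.812 FPKM for 5 endothelial genes, 3.78 against 4.53 for 6 macrophage and microglia genes, 6.82 against 8.28 for 3 neuronal genes and 31.8 against 51.4 for 5 fibroblast and pericyte genes. Most of the last sum was COL1A1 at 27.4 against 29.4 FPKM, a level above that of MT1F, while PDGFRB had 1.74 against 12.4 FPKM and LUM 2.08 against 7.55. DCN had 33 against 386 reads, VWF 6 against 75 and PECAM1 1 against 45, while ERG went the other way with 14 against 11. AIF1 and CX3CR1 had 0 reads in both libraries. PTPRC and CDH5 had 0 in the library labelled TRIP13 shRNA against 11 and 6 in the control library. Of 4 liver and kidney genes, tissues where metallothioneins are abundant, 3 had 0 reads in both. All 4 sums for markers of other brain and stromal cell types were higher in the control library. Both cultures were of 1 cell line, so reads of these markers do not show that cells of those types were present. The part of these and of the glioma markers in the differences below was not tested. In such bulk RNA, fewer cells expressing a gene and less RNA per cell cannot be told apart.

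The coding sequences of the metallothionein genes with more than a few reads are so alike that the sequences themselves bear on how far each value can be trusted. They are shown 5′ to 3′ from start to stop codon, from GENCODE 29, with capitals at each base that differs from MT1E in an alignment. MT1L is a pseudogene of the same cluster, and the stretch of its transcript that aligns with the coding sequence of MT1E is shown.
MT1E: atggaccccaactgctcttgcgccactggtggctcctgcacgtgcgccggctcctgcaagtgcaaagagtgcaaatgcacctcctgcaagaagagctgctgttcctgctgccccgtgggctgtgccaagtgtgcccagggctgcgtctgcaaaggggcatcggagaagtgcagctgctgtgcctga
MT2A: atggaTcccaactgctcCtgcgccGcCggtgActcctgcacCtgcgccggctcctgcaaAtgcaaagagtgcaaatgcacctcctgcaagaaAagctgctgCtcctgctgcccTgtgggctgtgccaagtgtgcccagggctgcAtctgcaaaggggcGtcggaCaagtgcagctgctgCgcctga
MT1F: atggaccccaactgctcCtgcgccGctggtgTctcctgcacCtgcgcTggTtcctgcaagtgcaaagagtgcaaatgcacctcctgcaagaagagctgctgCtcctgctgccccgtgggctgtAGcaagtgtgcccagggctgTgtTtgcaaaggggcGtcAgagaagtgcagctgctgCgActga
MT1X: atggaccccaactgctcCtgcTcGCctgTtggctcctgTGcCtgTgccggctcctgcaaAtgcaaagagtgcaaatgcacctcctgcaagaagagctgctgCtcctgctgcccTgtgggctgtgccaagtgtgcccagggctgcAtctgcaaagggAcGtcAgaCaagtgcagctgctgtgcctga
MT1M: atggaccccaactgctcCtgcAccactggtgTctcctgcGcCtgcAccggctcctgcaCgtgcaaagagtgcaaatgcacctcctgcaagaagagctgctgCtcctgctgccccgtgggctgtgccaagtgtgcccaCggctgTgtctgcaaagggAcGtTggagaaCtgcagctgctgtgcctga
MT1L: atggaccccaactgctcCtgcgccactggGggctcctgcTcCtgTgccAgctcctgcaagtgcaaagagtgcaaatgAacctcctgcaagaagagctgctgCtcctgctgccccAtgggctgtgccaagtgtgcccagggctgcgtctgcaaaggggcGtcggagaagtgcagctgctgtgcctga
Each of these sequences had 186 bases, and the 5 coding ones held 61 codons before the stop, of which 20 encoded cysteine. Identity between any pair of the 6 ranged from 88.7% to 94.6%, that is from 21 to 10 differing positions. MT1E and MT1L differed at 10 positions, MT1E and MT2A at 14, and MT1F and MT1X at 21. The MT1L stretch carried an in-frame stop at codon 26, ahead of the stop at codon 62 that it shares with the others.

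Whether reads could be assigned to the right copy depends on their length, which is not given in the sources used here. Among all annotated transcripts, windows of 50 bases that also occurred exactly in a transcript of another gene made up 3.02% of the windows of MT2A, 7.10% of MT1E, 1.22% of MT1F, 9.87% of MT1M, 4.42% of MT1L and 18.3% of MT1X. At 100 bases the share was 0% for MT2A, MT1E, MT1F, MT1G, MT1M and MT1L and 1.39% for MT1H, which shared windows with MT1HL1. MT1X still shared 11.3%, all with AC026461.1, a noncoding gene on the same strand that overlaps 18.1% of the MT1X exon length and had 0 reads in both libraries. SLC30A1 and SLC39A10 shared no window of 50 bases or more with another gene, and MTF1 shared 0.891% at 50 bases and 0.0505% at 100. The shares pool the windows of every annotated transcript of a gene, and shares for its principal transcript alone, which can be larger, were not computed. These are exact matches within annotated transcripts, so near matches and unannotated copies are not covered. At 75 bases MT1X shared 14.3% and MT1E 1.42%, but MT1M shared 0.231% and MT2A, MT1F and MT1L 0%, against 0.415% for MTF1. Whether values of the metallothioneins are less certain than those of the transporters and MTF1 thus depends on the gene and the unknown read length.

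Promoter windows from RefSeq (GRCh38.p14, 250 bases before to 50 after the start site) were at hand for 6 of the 10 genes, MT2A, MT1H, MT1X, SLC30A1, SLC39A10 and MTF1. MT1E, MT1F, MT1G and MT1M were not matched. The core of the metal response element was searched as TGCACNC and TGCGCNC on both strands. The windows below are shown because they belong to the most abundant member, to the member with nearly equal values, to a member with 0 reads and to the zinc exporter, with capitals at each match.
MT2A, chr16:56608334-56608633, plus strand: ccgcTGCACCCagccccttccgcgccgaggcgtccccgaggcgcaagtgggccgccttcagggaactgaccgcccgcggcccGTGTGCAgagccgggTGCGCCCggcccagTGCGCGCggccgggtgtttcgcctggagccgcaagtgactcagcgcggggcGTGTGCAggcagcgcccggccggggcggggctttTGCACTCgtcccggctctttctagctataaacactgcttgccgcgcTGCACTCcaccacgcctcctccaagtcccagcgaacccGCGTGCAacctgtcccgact
MT1X, chr16:56682220-56682519, plus strand: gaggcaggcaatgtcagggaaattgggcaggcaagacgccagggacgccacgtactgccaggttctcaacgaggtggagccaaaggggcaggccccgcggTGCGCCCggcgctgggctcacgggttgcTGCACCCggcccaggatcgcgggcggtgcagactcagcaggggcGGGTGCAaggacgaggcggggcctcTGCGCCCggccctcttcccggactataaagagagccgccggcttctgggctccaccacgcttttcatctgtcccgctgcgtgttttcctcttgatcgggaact
MT1H, chr16:56669564-56669863, plus strand: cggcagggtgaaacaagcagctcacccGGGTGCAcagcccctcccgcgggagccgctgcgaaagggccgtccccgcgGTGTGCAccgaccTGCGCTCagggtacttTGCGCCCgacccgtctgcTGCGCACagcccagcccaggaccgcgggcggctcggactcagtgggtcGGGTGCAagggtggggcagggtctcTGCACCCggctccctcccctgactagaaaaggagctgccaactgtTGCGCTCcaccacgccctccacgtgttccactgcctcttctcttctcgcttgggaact
SLC30A1, chr1:211579112-211579411, minus strand: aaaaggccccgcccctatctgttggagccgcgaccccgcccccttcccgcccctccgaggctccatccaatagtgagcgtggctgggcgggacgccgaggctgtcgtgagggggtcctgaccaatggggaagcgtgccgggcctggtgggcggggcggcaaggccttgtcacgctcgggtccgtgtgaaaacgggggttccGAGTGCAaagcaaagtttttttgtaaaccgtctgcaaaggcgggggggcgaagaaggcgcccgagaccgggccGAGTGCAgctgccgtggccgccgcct
MT2A and MT1H each held 8 matches, a number reached by 0.0199% of the 35116 windows of the same length. MT1X held 4, reached by 0.601% of windows, and SLC30A1 held 2, reached by 8.60%. SLC39A10 has windows at a pair of start sites, with 0 and 1 matches, and MTF1 had 0, while 29.6% of all windows held at least 1. No match overlapped another. The windows of MT2A (72.0% G and C), MT1H (68.3%), MT1X (67.0%) and SLC30A1 (68.0%) were all rich in G and C. A match is a description of the letters and not a site. MT1H, with as many matches as MT2A, had 0 reads in both libraries.

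MT2A was by far the most abundant metallothionein and was lower in the library labelled TRIP13 shRNA, while MT1E, MT1F and SLC30A1 were higher there and MT1X was nearly equal. So the genes did not move as a block. Of the 10 genes, 8 reached a mean of 1 FPKM, 4 of them above and 4 below a log2 ratio of 0, and 0 differed at least 2-fold. Under the 3 other scalings tried MT1X moved below 0, which made 3 above and 5 below, and the other 7 kept their sides. The log2 ratio compares FPKM + 1 of the library labelled TRIP13 shRNA with FPKM + 1 of the control library, which understates differences of weakly expressed genes. Among the 10671 protein-coding genes that reached the same mean, here the tested genes, 6.36% differed at least 2-fold, 2.17% higher and 4.19% lower, so a count of 0 among 8 genes does not set them apart. The median log2 ratio was -0.05 over the 8 genes and 0.12 over all 10671. Of all 10671, 6429 lay above 0 and 4222 below, so 0 is not a neutral line for these counts or those of the lists below. With the median ratio of the tested genes set to 1, the counts were 5329 and 5345.

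**Figure D1:**
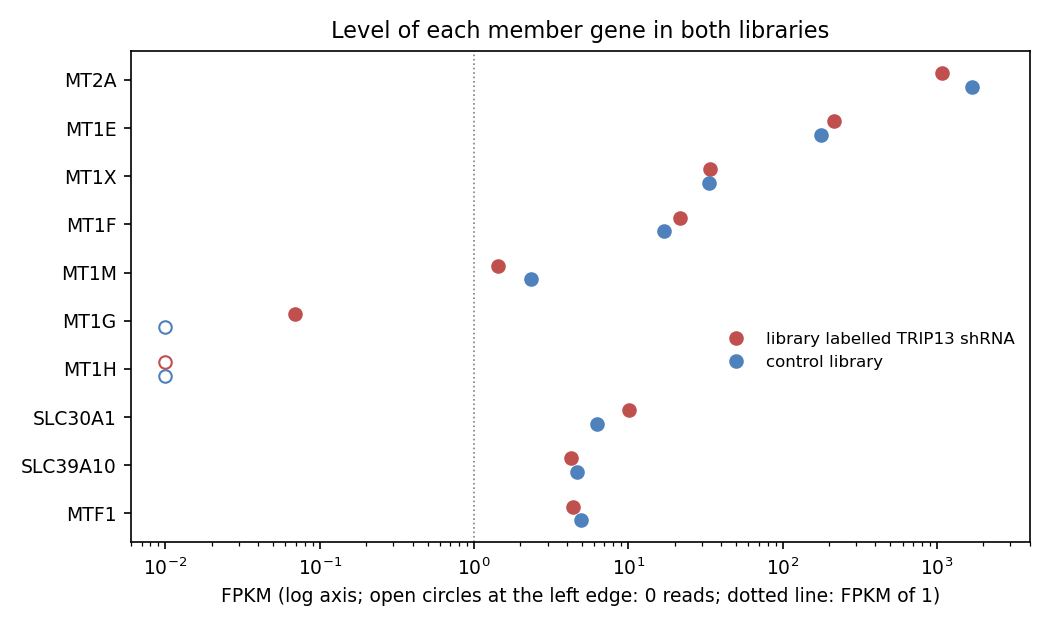
FPKM of each of the 10 genes (horizontal log axis) in the library labelled TRIP13 shRNA (red) and the control library (blue), 1 library each, with open circles at the left edge for 0 reads. MT2A stands at 1086 and 1686 FPKM, MT1E at 215 and 176, and MT1G and MT1H at or near 0.

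MT2A (ENSG00000125148, hg38 chromosome 16, 56608199 to 56609497, plus strand), the main inducible metallothionein, had 27345 reads and 1086 FPKM in the library labelled TRIP13 shRNA against 42450 reads and 1686 FPKM in the control library, the order of all later pairs of values. It ranked 20th and 15th by FPKM among 19951 protein-coding genes. The control library was 1.55-fold higher, with a 95% exact counting interval of 1.53 to 1.58, and the log2 ratio of -0.63 lay above that of 9.14% of the tested genes. Such an interval comes from the split of a gene's reads between both libraries. It holds counting error of reads alone, because 1 library per group shows no spread between cultures. The sources used here name no molecular identifiers, so reads may be copies of 1 molecule and the interval may be too narrow even for counting error. Intervals excluded a ratio of 1 for 5 of the 8 members and for 78.5% of the tested genes, so exclusion of 1 does not set a member apart.

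MT1E (ENSG00000169715, chromosome 16, 56625475 to 56627112, plus strand), an MT1 isoform, had 4380 against 3591 reads, 215 against 176 FPKM. This was a ratio of 1.22 (1.17 to 1.28), or 0.29 as a log2 ratio, above that of 65.5% of the tested genes. With each library divided by its own number of reads the ratio was 1.16 (1.11 to 1.21). MT1F (ENSG00000198417, 56657694 to 56660698, plus strand) had 792 against 621 reads, 21.6 against 17.0 FPKM, a ratio of 1.28 (1.15 to 1.42). The same division gave 1.21 (1.09 to 1.35) for MT1F, whose log2 ratio of 0.33 lay above that of 69.6% of the tested genes. MT1X (ENSG00000187193, 56682424 to 56684196, plus strand) had 1160 against 1145 reads, 33.8 against 33.3 FPKM, a ratio of 1.01 (0.933 to 1.10). The MT1X interval held both 1 and the depth ratio of 1.05, so no difference was detectable at this depth. Its log2 ratio of 0.02 turned to -0.06 by own totals, that is with each library divided by its own number of reads, and MT1X is given no direction.

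The remaining members were weak or silent. MT1M (ENSG00000205364, 56632233 to 56633986, plus strand) had 26 against 43 reads, 1.42 against 2.36 FPKM, a ratio of 0.605 (0.357 to 1.01). MT1M lay below 1 with an interval that reached it, and divided by own totals its ratio of 0.573 had an interval (0.338 to 0.954) below 1. MT1G (ENSG00000125144, 56666731 to 56668065, minus strand) had 1 read against 0, and MT1H (ENSG00000205358, 56669814 to 56671129, plus strand) 0 in both. A floor of 3 reads corresponds to 0.206 FPKM for MT1G, so both libraries lay under it and no ratio is given for either gene.

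**Figure D2:**
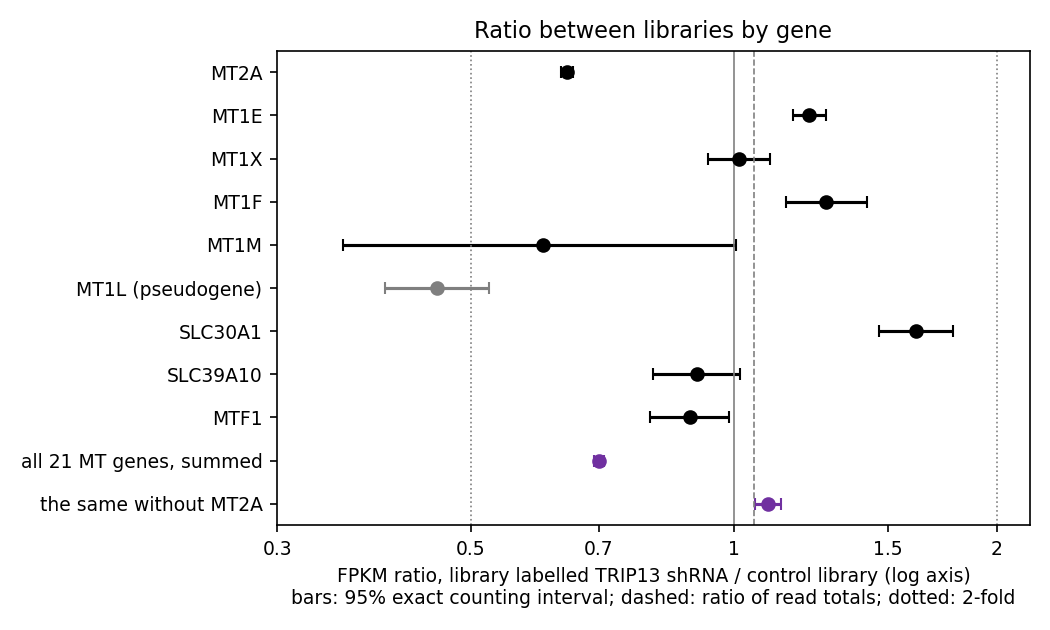
Ratio of FPKM in the library labelled TRIP13 shRNA to the control library (log axis) for the 8 members that averaged at least 1 FPKM, for MT1L and for the summed reads of the family, with 95% exact counting intervals as bars. MT2A (0.644) and MT1L (0.458) lie below 1, and MT1E (1.22), MT1F (1.28) and SLC30A1 (1.61) above it. At the deposited scaling shown, the family sum changes side when MT2A is left out (0.701 and 1.09).

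The table held 21 annotated metallothionein genes and pseudogenes, 16 of them within 119 kb on chromosome 16 (56565049 to 56684196) and 5 elsewhere. Reads were found for 13, and 8 had 0 in both libraries, MT1A, MT1B, MT1H, MT1HL1, MT1JP, MT1CP, MT1IP and MT1P1. MT3 had 0 against 1 read and MT4, an epithelial form, 1 against 0. Along the cluster the expressed genes were interleaved with silent ones. MT1L (ENSG00000260549, 56617476 to 56618818, plus strand), which lies between MT2A and MT1E, had 308 against 673 reads, 38.7 against 84.5 FPKM, a ratio of 0.458 (0.399 to 0.525). MT1L thus passed the 2-fold rule on the low side, with a log2 ratio of -1.11, as did 11.8% of the 2457 genes that are not protein-coding and reached the same mean. Over genes of every biotype 5.61% were that much lower and 8.11% differed by as much in either direction. MT1E, its neighbour, went the other way. The pseudogene MT2P1 on chromosome 4 had 5 against 23 reads (0.217, 0.0646 to 0.585) and also passed the 2-fold rule. Of its windows of 50 bases, 15.7% also occurred in transcripts of other genes, MT2A among them, so its few reads may belong to other copies. MT1DP had 8 against 12, MT1XP1 2 against 0 and MT1P3 0 against 1.

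**Figure D3:**
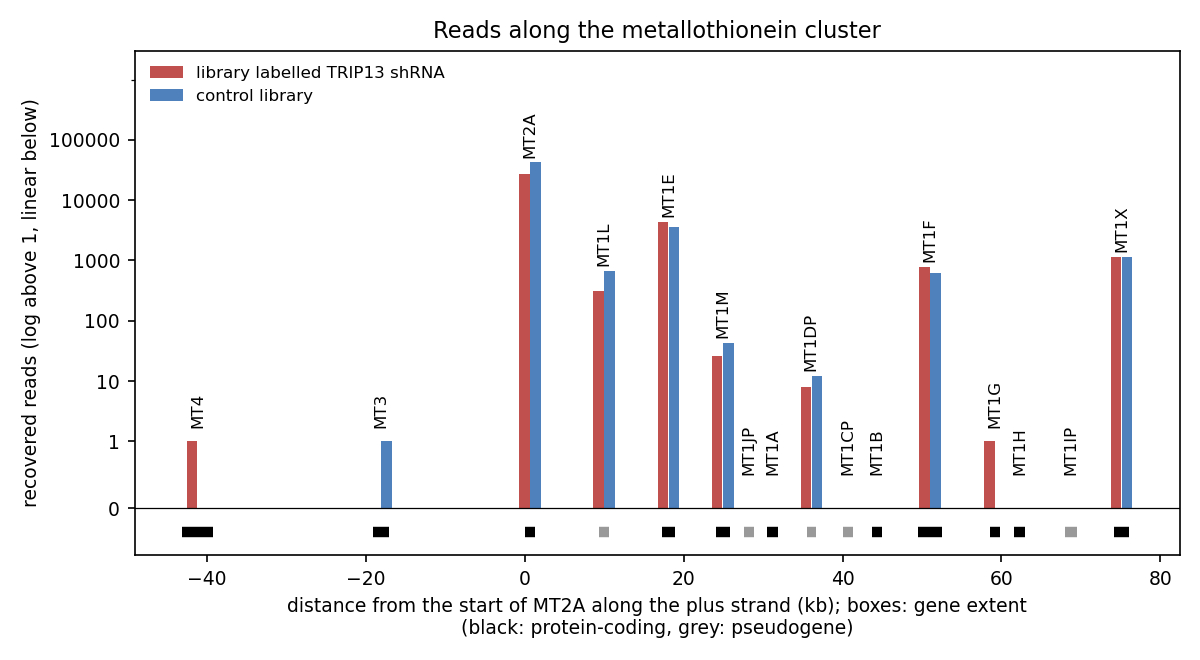
Recovered reads (vertical axis, log above 1 and linear below) of the 16 metallothionein genes and pseudogenes on chromosome 16 by distance from the start of MT2A in kb, red for the library labelled TRIP13 shRNA and blue for the control library. MT2A and MT1L are taller in the control library, MT1E and MT1F in the other, and 6 genes between them or beside them have no bar.

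Summing the family sets aside which copy a read was given to, though not any reads left out for matching several copies. The 21 genes held 34028 against 48560 reads. That was 0.171% of all reads of the library labelled TRIP13 shRNA (95% Wilson interval 0.169% to 0.173%) against 0.257% of the control library (0.255% to 0.260%). The ratio was 0.701 (0.691 to 0.711), and 0.664 by own totals. This sum follows MT2A. Without MT2A the other 20 genes held 6683 against 6110 reads, a ratio of 1.09 (1.06 to 1.13). By own totals it was 1.04, with an interval that barely cleared 1 (1.002 to 1.07). MT2A made up 80.4% of the family's reads (79.9% to 80.8%) against 87.4% (87.1% to 87.7%). The share of MT1E was 12.9% (12.5% to 13.2%) against 7.39% (7.17% to 7.63%), and that of MT1F 2.33% against 1.28%.

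Ratios taken within a library do not depend on depth or scaling. For each 100 reads of MT2A there were 16.02 against 8.46 reads of MT1E, a 1.89-fold difference (95% counting interval 1.81 to 1.98). The same comparison gave 1.98-fold (1.78 to 2.20) for MT1F, 1.57-fold (1.45 to 1.71) for MT1X and 2.51-fold (2.27 to 2.76) for SLC30A1. MT1F and MT1E kept nearly the same proportion, 18.1 against 17.3 reads of MT1F for each 100 of MT1E (1.05, 0.933 to 1.17). MT1L was lower against both, with 7.03 against 18.7 reads for each 100 of MT1E (0.375, 0.326 to 0.432) and a ratio of 0.710 (0.620 to 0.814) against MT2A. MT1M against MT2A, on few reads, had an interval that held 1 (0.939, 0.577 to 1.53). The comparisons with MT2A all share that gene, itself lower, so MT1X differs there though nearly equal between libraries. The balance of MT2A, MT1E and MT1L thus differed between these libraries by more than counting error of reads taken as independent, whatever the scaling. For single genes, intervals between libraries excluded 1 for 78.5% of the tested genes. No such share was computed for pairs of genes, so these differences are not shown to set the genes apart.

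Levels between genes also depend on the length used. The deposited lengths count every annotated exon, including transcripts that retain introns, and exceed the principal GENCODE transcript 1.65-fold for MT2A, 1.49-fold for MT1E, 2.74-fold for MT1F and 3.94-fold for MT1X. Per length of the principal transcript, an alternative chosen after seeing the data, MT2A stood at 1795 and 2787 FPKM, MT1E at 321 and 263, MT1X at 133 and 131 and MT1F at 59.2 and 46.4, the library labelled TRIP13 shRNA first. The order MT2A, MT1E, MT1X, MT1F, MT1M held on both lengths. MT1L, at 38.7 and 84.5 FPKM on either length, stood above MT1X on the deposited lengths and below it on the principal ones. The ratio between libraries of a gene does not change with its length.

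SLC30A1 (ENSG00000170385, chromosome 1, 211571568 to 211578742, minus strand), the exporter of zinc at the cell surface, had 1080 against 669 reads, 10.2 against 6.31 FPKM. Its ratio was 1.61 (1.46 to 1.78), or 1.53 (1.39 to 1.69) by own totals, and its log2 ratio of 0.61 lay above that of 88.8% of the tested genes. SLC39A10 (ENSG00000196950, chromosome 2, 195575977 to 195737702, plus strand), a zinc importer, had 569 against 628 reads, 4.24 against 4.68 FPKM, a ratio of 0.906 (0.808 to 1.02). MTF1 (ENSG00000188786, chromosome 1, 37809567 to 37859620, minus strand), the zinc sensor, had 680 against 764 reads, 4.37 against 4.91 FPKM, a ratio of 0.890 (0.801 to 0.988). Divided by own totals, SLC39A10 (0.859, 0.766 to 0.964) and MTF1 (0.844, 0.760 to 0.937) both lay below 1. By that measure 3 of the 8 members had intervals above 1 (MT1E, MT1F and SLC30A1), 4 below (MT2A, MT1M, SLC39A10 and MTF1) and 1 (MT1X) held 1, while 77.2% of tested genes excluded 1. MTF1 and SLC39A10 were neighbours in level, and their order turned with the length used: in the control library MTF1 stood at 4.91 and SLC39A10 at 4.68 FPKM on the deposited lengths, but at 4.94 and 5.97 on the principal ones.

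Zinc exporters of the SLC30 family and the exporter TMEM163 numbered 11, of which 7 averaged at least 1 FPKM, 5 above and 2 below a log2 ratio of 0 (4 and 4 of 8 after rescaling to TPM, 4 and 3 with the median ratio set to 1), with a median of 0.19 against 0.12 for all tested genes and 0 past the 2-fold rule. SLC30A1 was at the top. SLC30A6, which loads zinc into the secretory pathway, had 10.5 against 8.20 FPKM and its partner SLC30A5 11.5 against 9.63. At the other end, SLC30A10, known as a manganese exporter, had 0.698 against 1.45 FPKM, SLC30A4 1.17 against 1.55 and SLC30A7 8.41 against 7.84. SLC30A3, a synaptic vesicle transporter under that level, had 7 against 60 reads.

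Of 14 zinc importers of the SLC39 family, 11 averaged at least 1 FPKM, 5 above and 6 below 0 (2 and 9 under each of the 3 other scalings), with a median of -0.04 and 0 past the 2-fold rule. SLC39A3 had 5.64 against 3.30 FPKM, a log2 ratio of 0.63, and SLC39A1 1.42 against 0.716. SLC39A14, an importer of zinc, iron and manganese and the most abundant of the list in the control library, had 40.5 against 63.5 FPKM, a ratio of 0.639 (0.617 to 0.661). SLC39A11 had 8.29 against 11.9 FPKM and SLC39A6 13.9 against 17.1. SLC39A7, which releases zinc from the endoplasmic reticulum, had nearly equal levels of 52.0 against 50.9 FPKM (1.02, 0.970 to 1.08), as did SLC39A8 with 11.0 against 10.7.

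**Figure D4:**
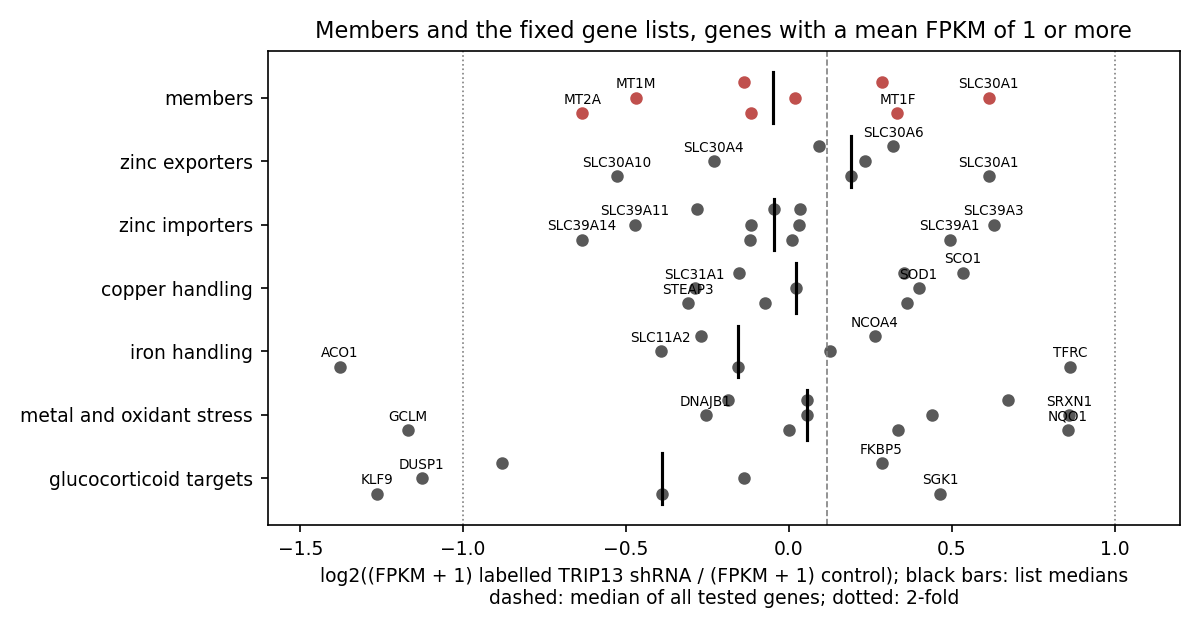
Log2 ratio (horizontal axis) of each gene averaging at least 1 FPKM among the members (red) and in each of 6 gene lists (grey), with list medians as black bars, the median of all tested genes (0.12) dashed and the 2-fold bounds dotted. Points past a dotted line are GCLM, ACO1, KLF9 and DUSP1, all lower in the library labelled TRIP13 shRNA.

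Copper, which metallothioneins also bind, has its own carriers and chaperones. The list held 14 genes of the table, since SCO2 stood there under a pair of identifiers, and 9 averaged at least 1 FPKM, 5 above and 4 below 0 (4 and 5 by own totals), with a median of 0.02 and 0 past the 2-fold rule. SCO1, a copper chaperone of cytochrome oxidase, had 7.78 against 5.06 FPKM, SOD1, the copper and zinc superoxide dismutase, 115 against 86.8, and COMMD1 6.30 against 4.68. STEAP3, a metalloreductase, had 58.1 against 72.3 FPKM, the copper importer SLC31A1 14.3 against 17.8 and the chaperone COX17 16.5 against 18.4.

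Iron handling genes lay on both sides of 0. Of 8 genes 7 averaged at least 1 FPKM, 3 above and 4 below 0 under each scaling, with a median of -0.16. ACO1, the cytosolic aconitase that doubles as an iron sensor, was the 1 gene past the 2-fold rule, at 15.6 against 42.1 FPKM (0.370, 0.352 to 0.388). TFRC, the transferrin receptor, stood at 63.1 against 34.2 FPKM, a log2 ratio of 0.86, NCOA4 37.7 against 31.2 and IREB2 7.94 against 7.19. SLC11A2, an iron importer, had 15.02 against 20.04 FPKM, and the ferritin chains FTH1 and FTL 1300 against 1567 and 2753 against 3066.

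Genes of metal and oxidant stress, some of them also bound by MTF1 or induced by cadmium, numbered 12. Of these 11 averaged at least 1 FPKM, 7 above 0, 3 below and GCLC at 0 with 993 reads in both libraries (5 above and 6 below by own totals), and the median was 0.06. GCLM, the modifier subunit of glutathione synthesis, was the 1 gene past the 2-fold rule, at 7.32 against 17.7 FPKM (0.413, 0.379 to 0.449). With a pseudocount of 5 no gene of this list passed it, and with a pseudocount of 0.1 or on reads with 5 added 1 gene also passed it on the high side. SRXN1, NQO1 and TXNRD1, antioxidant enzymes, were at the other end, at 3.94 against 1.72, 55.9 against 30.4 and 70.2 against 43.7 FPKM. HMOX1, the heme oxygenase that heavy metals induce, had 40.8 against 32.1 FPKM, a ratio of 1.27 (1.19 to 1.36). DNAJB1 had 62.5 against 74.8 FPKM. HSPA1A, whose reads can be shared with its near-identical copy HSPA1B, had 1.247 against 1.559 FPKM. That rested on 60 against 75 reads, with an interval that held 1 (0.560 to 1.14). HSPA1B had 1300 against 1248 reads, 26.6 against 25.5 FPKM, a ratio of 1.04 (0.963 to 1.13).

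Glucocorticoids are another known inducer of MT2A. Of 8 genes of the glucocorticoid list 7 averaged at least 1 FPKM, 2 above and 5 below 0 under each scaling, with a median of -0.39, the lowest of the 6 lists. KLF9, a transcription factor, had 1.82 against 5.79 FPKM (0.315, 0.265 to 0.373) and DUSP1, a phosphatase of MAP kinases, 38.1 against 84.4 (0.452, 0.424 to 0.480). Both passed the 2-fold rule on the low side, as did 4.19% of all tested genes. That count of 2 became 1 with a pseudocount of 5 or a minimum mean of 5 FPKM, and 3 with a pseudocount of 0.1, under TPM or on reads with 5 added. PER1, a clock gene, had 2.45 against 5.34 FPKM. SGK1 and FKBP5 went the other way, at 5.63 against 3.80 and 2.36 against 1.76 FPKM. NR3C1, the glucocorticoid receptor itself and counted among the 5 below, had 11.4 against 12.7 FPKM, a ratio of 0.901 (0.848 to 0.957). Whether any of these values bears on MT2A was not tested.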

How the data were processed

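The authors deposited FPKM values for both libraries of total RNA, prepared with the NEBNext Ultra kit per the labels' protocols. Per the submitters' processing notes the build was hg38 and the tools were edgeR, featureCounts 1.5.0-p3 and HISAT2 2.0.5, with no roles or settings. Annotation, strand setting and the treatment of reads that match several copies were not stated. Identifiers, positions and strands of all 58735 genes equalled those of GENCODE 29.

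FPKM multiplied by gene length was a whole multiple of 51.6 in both libraries, within 0.01 of a read for 100% of values, which gave back the reads and showed a common total of 19380571. With 1 library per group no test was made. Genes were compared by log2((FPKM + 1) / (FPKM + 1)), a fixed rule of 2-fold, and 95% exact (Clopper-Pearson) intervals of the ratio. The approximate intervals of ratios within a library used the normal approximation on the log scale. Intervals and the floor of 3 reads cover counting error only. The size rule was applied to protein-coding genes averaging at least 1 FPKM. Members and gene lists were chosen with earlier results of these data known. Named were all members, all metallothionein genes, list genes past the rule and up to 3 at each end of each list, and TRIP13. SLC30A3, SLC39A7, HMOX1, HSPA1B, GCLC, FTL and the marker genes were named after their values were seen. Alternatives were pseudocounts of 0.1 and 5, other filters, scalings and feature sets. The calculations were tested on simulated data that held counting error alone, which checks the arithmetic and not the other limits of these libraries. Coding sequences were aligned globally, and coordinates are hg38. Software was scipy 1.17.1, pandas 2.3.3, Biopython 1.88, numpy 2.4.6 and matplotlib 3.10.9 under Python 3.11.15.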

Additional observations from a re-analysis of the deposited data

How the results depend on the processing

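No paired analysis was possible because there was 1 library per group, and for the same reason no replicate could be left out. Among the members, 0 passed the 2-fold rule under each of the 9 alternatives. The 9 members with a read gave 54 alternative log2 ratios, 41 inside and 13 outside their counting intervals, and 1 member, MT1X, turned sign. MT2A ranged from -0.77 to -0.63, SLC30A1 from 0.43 to 0.69, MT1E from 0.15 to 0.29 and MT1F from 0.20 to 0.35. The ratio of summed metallothionein reads, 0.701, was 0.664 by own totals and 0.636 with the median ratio set to 1. At the deposited scaling it turned to 1.09 without MT2A, because MT2A holds most of the reads. It also turned to 1.10 over MT1 genes and pseudogenes only, a set chosen after seeing the data. Neither of these smaller sums was computed with the median ratio set to 1, so the change of side is not shown for that scaling. The 679 genes past the 2-fold rule became 1085 with a pseudocount of 0.1, 244 with 5, 1233 after rescaling to TPM, 1111 on reads with 5 added and 1065 over every biotype, and 8378 genes had a counting interval that excluded 1, a rule added later. Of the genes past the rule 34.2% were higher, but 22.5% under TPM and 19.7% with the median ratio set to 1, which each moved the median over all of these genes by -0.12 on the log2 scale. All 54 alternative list medians stayed within 1 SD of the list's members, a bound that does not exclude a change of sign. The lists' medians ranged from 0 to 0.23 for zinc exporters and from -0.17 to -0.03 for zinc importers. They changed sign for copper handling (-0.11 to 0.19) and for metal and oxidant stress (-0.05 to 0.20). For iron handling they ranged from -0.30 to -0.09 and for glucocorticoid targets from -0.63 to -0.21. Of the zinc exporters 1 passed the 2-fold rule on the low side under TPM and on reads with 5 added, against 0 otherwise. Few reads limit MT1M, MT1G and MT1H.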

Other observations

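Genes around the metallothionein cluster, chosen after their values were seen, went both ways. AC026461.3, a lincRNA on the minus strand just after MT2A, had 1 read in the library labelled TRIP13 shRNA against 48 in the control library, a ratio of 0.0208 (95% counting interval 0.000517 to 0.122). Of coding genes on the side of MT4, BBS2, a ciliary protein, stood at 6.09 against 7.99 FPKM (0.762, 0.701 to 0.829) and OGFOD1, a ribosomal protein hydroxylase, at 12.3 against 6.89 (1.78, 1.63 to 1.95). On the side of MT1X, the nucleoporin NUP93 had 9.54 against 6.83 FPKM (1.40, 1.31 to 1.49).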
